A study of Homo sapiens with 4 samples.

Results

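The genes described are the 6 subunits of the MCM2-7 helicase (MCM2, MCM3, MCM4, MCM5, MCM6 and MCM7) and the 4 subunits of the GINS complex (GINS1, GINS2, GINS3 and GINS4), 10 of the 15708 genes tested. They were chosen by name, as the probesets whose listed gene symbol is exactly 1 of these 10. A probeset is a small set of array probes that reads about 1 exon. The 10 symbols had 159 probesets, of which 157 passed the filter on dim probesets, and each of the 10 genes kept at least 3. The arrays measured total RNA of T-47D, an established human breast cancer cell line of luminal type that carries estrogen and progesterone receptors. In 1 group of 2 arrays the cells had been transfected with a mimic of the artificial microRNA p-27-5p at 200 nM, and in the other group of 2 arrays with a pre-miR negative control. Both groups were grown in DMEM with serum and transfected with the TurboFect reagent, and the labels give neither a separate dose for the control nor a time of harvest. Since the labels name no separate cultures for the 2 arrays of a group, the spread behind each p-value may be technical. That spread is the one between the arrays of a group, for the gene itself and, through the prior of the limma fit, for all genes tested.

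MCM2 to MCM7 form a ring of related ATPases that is loaded onto origins of replication in G1 and unwinds the DNA in S phase. The ring becomes an active helicase when CDC45 and the GINS tetramer (GINS4, also named SLD5, with GINS1, GINS2 and GINS3, also named PSF1, PSF2 and PSF3) bind to its side. The genes of both complexes are textbook targets of E2F transcription factors, which RB holds in check until cyclin-dependent kinases such as CDK4 phosphorylate it. High MCM levels are used as a sign of proliferating cells in breast tissue.

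The promoters of these genes are shown as a description. Since the members chosen by name are textbook E2F targets, E2F words in front of their start sites could be foreseen. Whether the words go with the lower values in the mimic arrays was not tested. RefSeq promoter sequence (build GRCh38.p14) was matched for 7 of the 10 genes, and the 250 bases before the start site were searched on both strands for the words TTTCCCGC, TTTCGCGC, TTTGCCGC and TTTGGCGC. The words can overlap one another where they lie on opposite strands. MCM3, MCM6, MCM7 and GINS2 held at least 1 of them, and MCM2, GINS1 and GINS3 held none, so that 4 of 7 promoters (57.1%) had a word. Over the promoters of all genes tested, 643 of 18205 (3.53%, some genes having several starts) had one, and over those of 46 other replication genes 9 (19.6%) had one. The pentamer CCAAT, the core bound by NF-Y, lay in 5 of the 7 promoters (71.4%), in 56.5% of those of the other replication genes and in 32.7% of those of all genes tested. The hexamer TTTGAA, a word of cell-cycle promoters, was in 0 of the 7, in 0 of the 46 and in 10.2% of those of all genes tested. These matches describe letters and are not binding sites measured here. The 250 bases before the start are given for the 4 genes with an E2F word, 5′ to 3′ on the strand of the gene (the minus strand in each), with the E2F words of either strand in capitals. They are chr2:135876444-135876693 for MCM6, chr16:85688955-85689204 for GINS2, chr6:52284743-52284992 for MCM3 and chr7:100101398-100101647 for MCM7, which is the first of the start sites listed for that gene.
MCM6: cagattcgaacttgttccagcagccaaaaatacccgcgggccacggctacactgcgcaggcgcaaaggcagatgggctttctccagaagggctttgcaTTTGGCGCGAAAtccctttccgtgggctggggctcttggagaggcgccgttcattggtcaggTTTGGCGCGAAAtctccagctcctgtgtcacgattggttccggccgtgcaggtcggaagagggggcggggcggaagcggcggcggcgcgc
GINS2: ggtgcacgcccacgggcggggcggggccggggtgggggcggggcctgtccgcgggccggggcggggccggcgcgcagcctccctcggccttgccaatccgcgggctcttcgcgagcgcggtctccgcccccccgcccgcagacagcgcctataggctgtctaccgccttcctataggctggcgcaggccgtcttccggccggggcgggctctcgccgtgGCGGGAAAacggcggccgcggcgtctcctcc
MCM3: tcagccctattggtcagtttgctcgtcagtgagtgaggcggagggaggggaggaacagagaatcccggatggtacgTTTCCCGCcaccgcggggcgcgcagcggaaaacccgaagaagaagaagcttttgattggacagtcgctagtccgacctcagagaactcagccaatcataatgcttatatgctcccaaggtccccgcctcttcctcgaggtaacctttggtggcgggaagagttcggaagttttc
MCM7: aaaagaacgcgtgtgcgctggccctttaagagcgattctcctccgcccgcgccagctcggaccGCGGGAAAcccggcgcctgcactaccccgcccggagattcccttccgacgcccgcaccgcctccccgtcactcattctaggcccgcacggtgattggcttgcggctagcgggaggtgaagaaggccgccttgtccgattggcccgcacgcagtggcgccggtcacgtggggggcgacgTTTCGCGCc
In MCM6 the capitals form a pair of stretches, each made of 1 word on either strand, and their first bases lie 152 and 90 bases before the start. In GINS2 the single word begins 31 bases before the start.

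All 10 genes were lower in the mimic arrays, and in none of them did the groups overlap. GINS2, GINS4 and MCM6 fell past the threshold of 0.05 (limma, Benjamini-Hochberg adjusted over all 15708 genes), and the other 7 genes did not pass. In simulated data the same fit called 0 of 50 genes changed by 0.5 on the log2 scale and 14 of 50 changed by 1. A gene that did not pass may therefore still have changed. Over all genes tested, 0.796% fell past this threshold, 12.8% were lower with an unadjusted p under 0.05 and 29.5% had both mimic arrays below both control arrays, against 3, 10 and 10 of the 10 members. A decrease of at least 0.5 on the log2 scale was seen in 8 members and in 6.46% of all genes. The median difference, mimic minus control, was -0.60 on the log2 scale over the 10 genes, -0.57 over MCM2-7 and -0.82 over GINS1-4, against 0.00 over all genes. In a bulk extract, fewer cells in the stages of the cycle that use these genes and less of these RNAs per cell cannot be told apart. The members were chosen with earlier results of these data known, and their counts are a description.

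**Figure D1:**
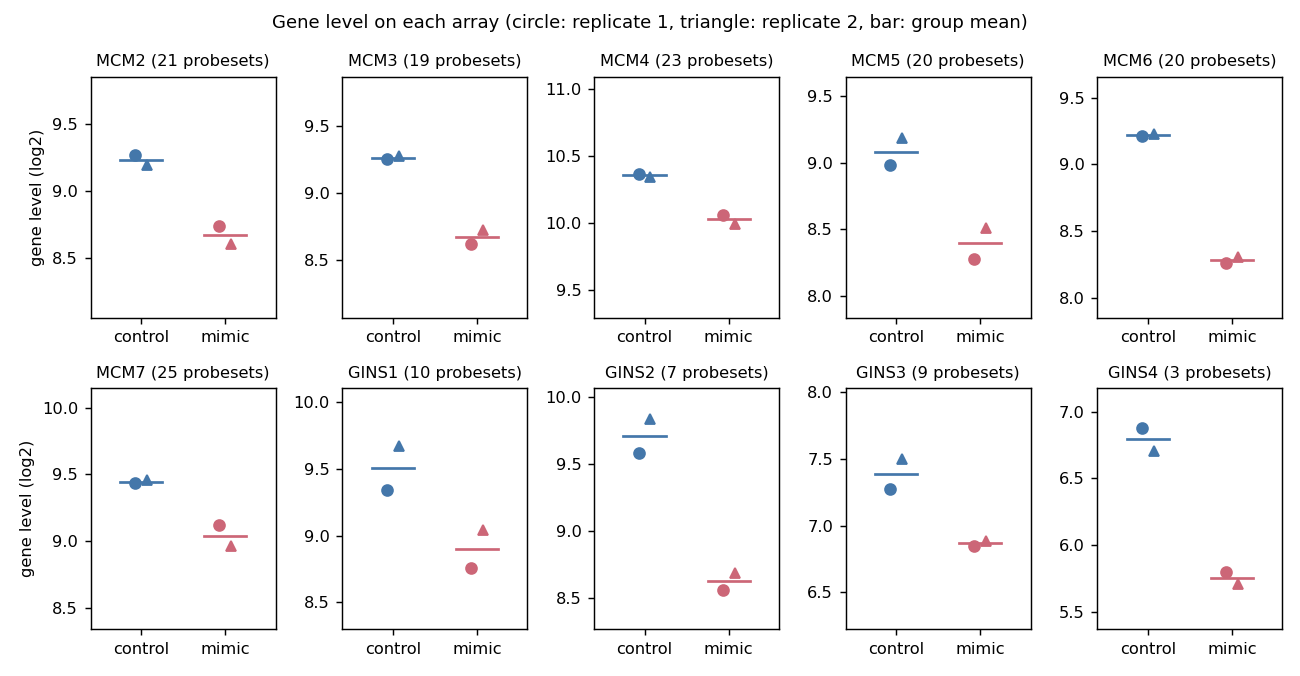
Gene level on the log2 scale (y axis) of each of the 10 genes on the 2 control arrays (blue) and the 2 mimic arrays (red), with circles for replicate 1, triangles for replicate 2 and a bar at the group mean; each panel spans 1.8 log2 units around its own centre. In each panel both mimic points lie below both control points, by the widest margin in MCM6, GINS2 and GINS4.

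Among the helicase subunits the difference was largest in MCM6, which sits between MCM2 and MCM4 in the ring. Its level was 9.21 and 9.23 on the control arrays and 8.27 and 8.31 on the mimic arrays. The arrays of a group differed by 0.02 (control) and 0.04 (mimic), while the lower control array stood 0.90 above the higher mimic array. On the log2 scale MCM6 fell by 0.93 (SE 0.117), its mean going from 9.22 ± 0.015 (SD, n = 2) to 8.29 ± 0.029 (SD, n = 2), so that the mimic arrays held 52.3% of the control level (limma adjusted p = 0.0264). Only 111 of all genes tested had a larger decrease.

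MCM5, which with MCM2 closes the gate through which DNA enters the ring, was read at 8.98 and 9.19 in control and 8.28 and 8.51 in mimic arrays. In both groups replicate 2 was the higher array, and the difference was -0.69 (SE 0.151, limma adjusted p = 0.0949). MCM2, whose tail also binds histones, had 9.27 and 9.19 in control and 8.74 and 8.60 in mimic arrays, a difference of -0.56 (SE 0.126, limma adjusted p = 0.0981). MCM3, the partner of MCM5 in the ring, had 9.25 and 9.27 in control and 8.62 and 8.73 in mimic arrays, a difference of -0.59 (SE 0.121, limma adjusted p = 0.0827). These 3 genes missed the threshold and passed a threshold of 0.1.

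MCM7 and MCM4 had the smallest differences of the 10 genes. MCM7, whose introns hold a cluster of microRNA genes, had 9.44 and 9.46 in control and 9.12 and 8.96 in mimic arrays, a difference of -0.41 with a 95% confidence interval from -0.73 to -0.09 (limma adjusted p = 0.166). MCM4, which with MCM6 and MCM7 makes the part of the ring that can unwind DNA by itself, had 10.37 and 10.35 in control and 10.06 and 10.00 in mimic arrays. Its difference of -0.33, with a 95% confidence interval from -0.63 to -0.03, left 79.6% of the control level (limma adjusted p = 0.211). The upper end of this interval nearly reached 0, and 2321 genes had a larger decrease. The intervals of MCM4 and MCM6 (-1.23 to -0.64) did not overlap, and whether the subunits differed from one another was not tested.

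Of the GINS subunits, GINS2 had the largest decrease of all 10 genes, with 55 genes of the array ahead of it. Its level was 9.58 and 9.84 on the control arrays and 8.56 and 8.69 on the mimic arrays, so the lower control array still stood 0.89 above the higher mimic array. On the log2 scale GINS2 fell by 1.08 (SE 0.146), its mean going from 9.71 ± 0.179 (SD, n = 2) to 8.63 ± 0.091 (SD, n = 2), to 47.2% of the control level (limma adjusted p = 0.0328).

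GINS4, which pairs with GINS1 in the tetramer, had 6.88 and 6.70 in control and 5.80 and 5.71 in mimic arrays. On the log2 scale it fell by 1.04 (SE 0.131), its mean going from 6.79 ± 0.122 (SD, n = 2) to 5.75 ± 0.066 (SD, n = 2), to 48.7% of the control level (limma adjusted p = 0.0267). The group means lay within the range of 11 genes of liver and neurons used as a background, so the fold change may understate the change. The control levels of these genes ran from 3.78 to 6.85 with a median of 4.94. The upper end was SYT1 alone. The next highest control level was that of APOA2, 5.53, below the control mean of GINS4. On the mimic arrays APOA2 had a mean of 6.35, above the 5.75 of GINS4. With only those probesets whose mean exceeded 6.85, an alternative chosen after seeing the data, GINS4 had -1.48 (limma adjusted p = 0.00528).

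GINS1 and GINS3 did not pass. GINS1 had 9.34 and 9.67 in control and 8.75 and 9.04 in mimic arrays, with replicate 2 the higher array in both groups and the widest spread among the 10 genes (control SD 0.234, n = 2). Its difference was -0.60 (SE 0.178, limma adjusted p = 0.153). GINS3 had 7.27 and 7.50 in control and 6.85 and 6.89 in mimic arrays, a difference of -0.52 (SE 0.136, limma adjusted p = 0.126). With the median of its probesets on each array it had -0.95 (limma adjusted p = 0.0766), the value of probeset 3663242, on which that median fell. This was the largest decrease of the alternatives, which ran from -0.95 to -0.41. The brightest probeset gave -0.43 and the fit without a filter -0.44.

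**Figure D2:**
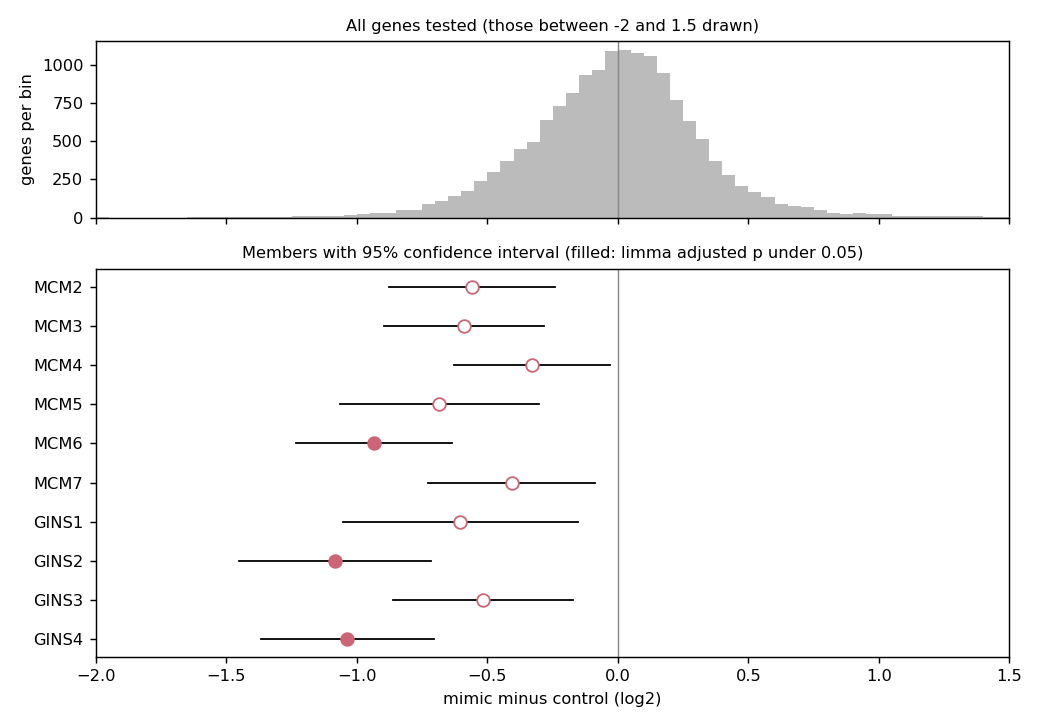
Top, number of genes per bin of 0.05 by the difference mimic minus control on the log2 scale (x axis), for all genes tested between -2 and 1.5. Bottom, the 10 members on the same axis with limma's 95% confidence interval, filled where the adjusted p was under 0.05; the points run from -1.08 (GINS2) to -0.33 (MCM4), all to the left of 0.

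With mimic replicate 1 or mimic replicate 2 left out, GINS2, GINS4 and MCM6 had differences between -1.15 and -0.91. MCM6 had -0.91 and -0.96, and its SE was 0.213 in both fits, against 0.117 with all arrays. Why calls were lost in these fits was not tested. None of the 10 genes passed in either fit, while 6 passed without control replicate 1 and 3 without control replicate 2. All 10 genes also missed the threshold with the median or the brightest probeset of each gene, and 9 passed with an intensity trend, which sets the expected variance by level. All 10 differences were below 0 in each of the 16 alternatives that gave them a value.

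The single probesets show how far each gene-level value stands for its exons. Of the 157 probesets of the 10 genes, 151 had a difference below 0 and 129 (82.2%) had both mimic arrays below both control arrays, against 53.6% and 27.1% of the 163371 probesets tested. None had both mimic arrays above both control arrays, as 20.7% of all probesets had. At an unadjusted p under 0.05, 85 were lower, against 9.02% of all probesets. At the level of single probesets 2 passed the threshold, both in MCM6, where 0.0949% of all probesets fell past it. The median probeset difference of the 10 genes was -0.57.

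In MCM6 19 of 20 probesets had both mimic arrays below both control arrays. The largest decrease, and the largest of all 157 probesets, was on probeset 2577909, which read 8.28 and 8.22 in control and 6.11 and 6.32 in mimic arrays and fell by 2.03 on the log2 scale (limma adjusted p = 0.0197). Probeset 2577913 read 9.22 and 9.38 in control and 7.65 and 7.79 in mimic arrays and fell by 1.58 (limma adjusted p = 0.043). The brightest MCM6 probeset, 2577916, had -0.71, and the dimmest that was used, 2577897, had -0.04 at levels between 3.90 and 4.63. MCM6 was the 1 member whose probesets differed from one another by limma's diffSplice F test (adjusted p = 0.0257), which called 3.04% of 14362 genes and made many false calls in simulated data.

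All 7 probesets of GINS2 had both mimic arrays below both control arrays, with differences from -1.47 on probeset 3703122 to -0.71 on 3703116, its brightest. GINS4 was read by 3 probesets. Probesets 3095769 and 3095767 had -1.73 and -1.23, and 3095768, at levels between 3.86 and 4.48, had -0.15 and overlapping groups, so the gene-level value averages a pair of clear differences with a probeset at background. In MCM5 18 of 20, in MCM3 16 of 19 and in GINS1 9 of 10 probesets had both mimic arrays below both control arrays, and in these 3 genes no probeset had a difference above 0. The largest decreases were -1.28 in MCM5, -1.14 in MCM3 and -0.93 in GINS1, whose brightest probeset had -0.32, against -0.60 for the gene.

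MCM2 had 18 of 21 probesets with separated groups, and its 2 probesets above 0 (0.19 and 0.18) read 6.56 and 4.74 in control arrays, among its dimmest. Its brightest probeset, 2640884, had -0.21, against -0.56 for the gene. GINS3 had 7 of 9, with 1 probeset above 0 (3663234, with 0.19). MCM7 had 18 of 25 and MCM4 15 of 23. The brightest probeset of MCM7 had -0.07 and its largest decrease was -1.05, on probeset 3063705. In MCM4 the differences ran from -0.74 on 3097167 to 0.22 on 3097157, which read 7.25 and 6.19 in control and 7.34 and 6.54 in mimic arrays. On that probeset the arrays of a group differed by more than the groups did.

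**Figure D3:**
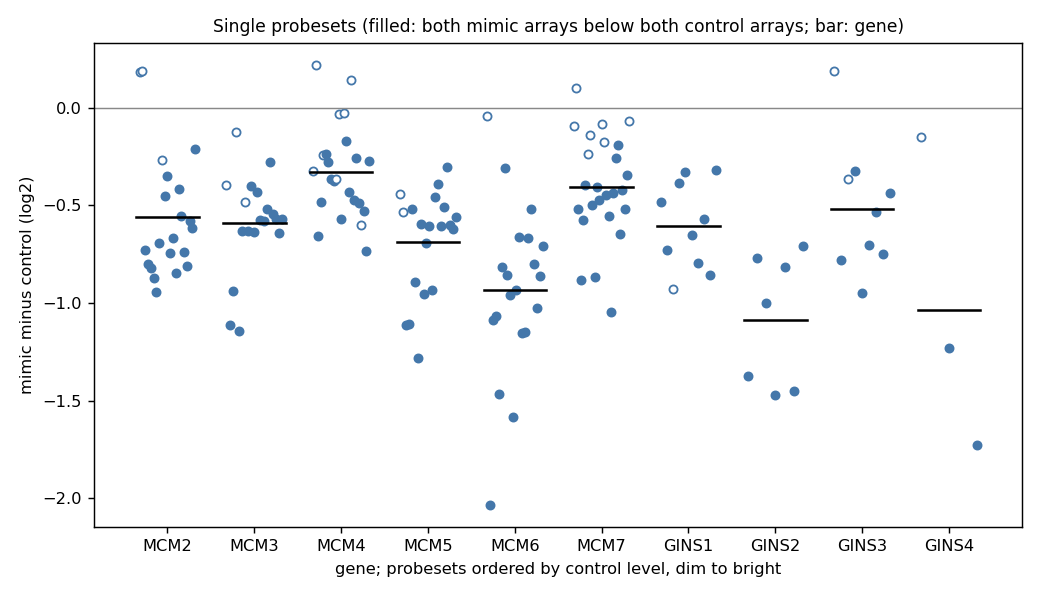
Difference mimic minus control on the log2 scale (y axis) of each of the 157 probesets, by gene (x axis) and within a gene from the dimmest to the brightest control level; filled points have both mimic arrays below both control arrays, and the bar is the gene's value. Of the points, 129 are filled and 6 lie above 0, and MCM6 reaches the lowest value, -2.03.

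Pooled over the 10 genes, the size of the difference varied with the brightness of the probeset. The 9 probesets with a control level under 6 had a median difference of -0.15 and those from 6 to 8 of -0.52. The median was -0.82 for the 26 probesets from 8 to 9, -0.64 for the 47 from 9 to 10, -0.55 for the 45 from 10 to 11 and -0.52 for the 15 above 11. Over all probesets the medians of the same classes lay between -0.11 and 0.09. The pooled probesets of the members thus differed most at middle levels, but the classes hold the genes in unequal shares. Within single genes the correlation of control level and difference had no common sign. It ran from r = -0.99 in GINS4, with 3 probesets, to 0.34 in GINS2. The part of the mix of genes, of background or of bright signal in this pattern was not tested.

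The other genes of licensing and of the replication fork were compared by 7 lists, with 54 of 55 listed genes measured. Of these 54, 1 fell past the threshold and none rose (0.796% and 1.52% of all genes). At an unadjusted p under 0.05, 25 were lower and 0 higher (12.8% and 7.66% of all genes). In all, 48 had a difference below 0, as 49.7% of all genes had. Their median was -0.36. The gene that fell was POLD2, the regulatory subunit of DNA polymerase delta, with 9.05 ± 0.126 (SD, n = 2) on the control arrays against 8.12 ± 0.036 (SD, n = 2) on the mimic arrays, which is -0.93 (SE 0.130, limma adjusted p = 0.0368, and no polymerase gene passed in either fit without a mimic array, with the replicate block or with the median or brightest probeset).

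Among the 9 genes that load the ring or restrain its loading, none passed and 3 were lower at an unadjusted p under 0.05, with a median of -0.29. ORC1, the cell-cycle regulated subunit of the origin recognition complex, had -0.57 (limma adjusted p = 0.105). The loaders CDC6 and CDT1 had -0.58 and -0.50. Of 11 genes of helicase activation and firing none passed and 6 were lower at an unadjusted p under 0.05, with a median of -0.44. DONSON, which brings GINS to the ring, had -0.70 (limma adjusted p = 0.126), WDHD1, a fork adaptor that binds GINS and polymerase alpha, -0.75 (0.13), and the helicase-like RECQL4 -0.56 (0.13). CDC45, the third partner of the active helicase, had -0.44 (limma adjusted p = 0.162).

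Of the 12 polymerase and primase genes 7 were lower at an unadjusted p under 0.05, POLD2 among them, with a median of -0.45. The primase subunits PRIM2 and PRIM1 had -0.70 and -0.63 (limma adjusted p = 0.0692 and 0.0981), and POLD3 was the 1 gene of this list above 0, with 0.29 (0.417). Of the 8 clamp and clamp loader genes none passed and 6 were lower at an unadjusted p under 0.05. CHTF18, RFC2 and RFC1 had -0.63, -0.65 and -0.47 (limma adjusted p = 0.0699, 0.0714 and 0.142), and PCNA, the sliding clamp, had 0.04 (0.871). Of 6 genes of single-strand binding and Okazaki fragment maturation none passed and 3 were lower at an unadjusted p under 0.05, with a median of -0.38. RNASEH2A, LIG1 and RPA1 had -0.65, -0.48 and -0.52 (limma adjusted p = 0.0988, 0.146 and 0.147).

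Of MCM8, MCM9, MCMBP, MCM3AP and MCMDC2 none passed by limma, and 0 did when p was left unadjusted. Their median was -0.08. MCM8, which works with MCM9 in recombination, had -0.36 (limma adjusted p = 0.335), MCM9 -0.08 (0.754) and MCM3AP, which acts in mRNA export, -0.15 (0.605). The fork protection genes CLSPN, TIMELESS and TIPIN had -0.15, -0.19 and -0.09 (limma adjusted p = 0.56, 0.566 and 0.772), and 0 of the 3 had an unadjusted p under 0.05. Whether these genes differed less than MCM2-7 was not tested.

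**Figure D4:**
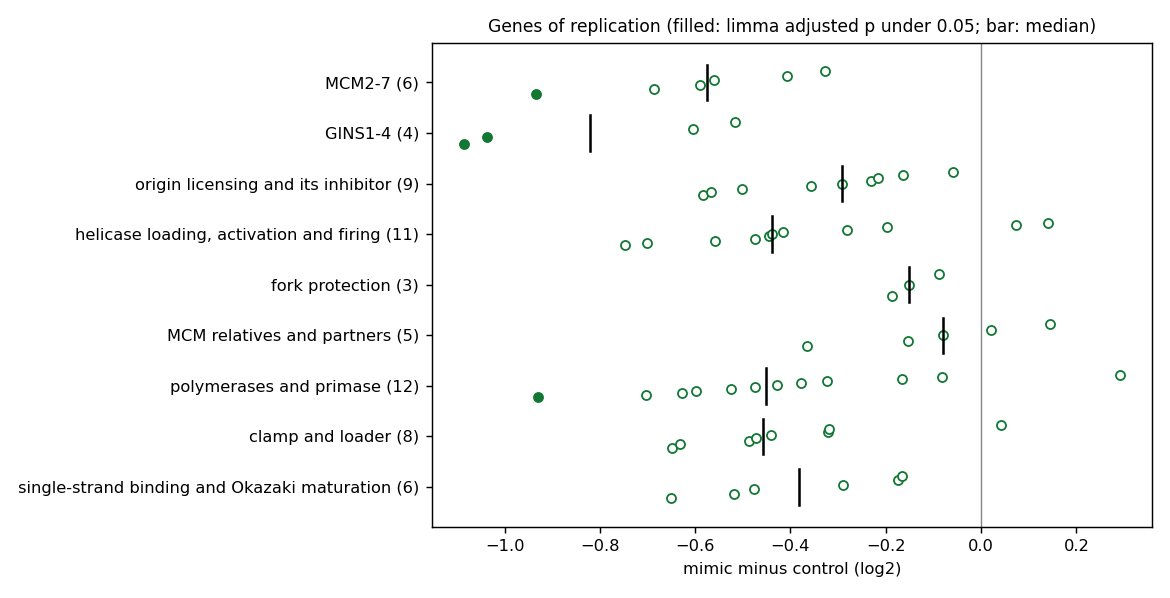
Difference mimic minus control on the log2 scale (x axis) of each measured gene of MCM2-7, of GINS1-4 and of the 7 other replication lists (y axis, number of genes in brackets), filled where the limma adjusted p was under 0.05, with a bar at the median. The medians run from -0.82 for GINS1-4 to -0.08 for the relatives and partners of the ring, and the 4 filled points are GINS2, GINS4, MCM6 and POLD2.

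The proliferation marker MKI67 had -0.07 with overlapping groups (8.63 and 9.08 in control and 8.63 and 8.95 in mimic arrays, limma adjusted p = 0.886). CDK4 had -0.58 and E2F1 -0.62 (limma adjusted p = 0.0821 and 0.106), each with both mimic arrays below both control arrays. In the same comparison the interferon-stimulated gene IFIT1 rose by 5.82 (SE 0.166, limma adjusted p = 0.000218), and its part in the result was not tested. The 9 luminal markers checked had control levels from 8.97 (KRT18) to 12.40 (KRT8) and a median difference of -0.02. PGR, KRT19, ESR1 and KRT8 were lower without overlap of the groups, at -0.60, -0.48, -0.42 and -0.26. None of these passed (limma adjusted p = 0.135, 0.148, 0.139 and 0.353). Of all genes tested, 29.5% were lower without overlap. EPCAM was higher without overlap, with 0.15 (limma adjusted p = 0.547). GATA3, FOXA1, KRT18 and CDH1 had overlapping groups, with differences from -0.02 (FOXA1) to 0.07 (KRT18). The 4 basal or mesenchymal, 4 fibroblast and 3 leukocyte markers had control levels from 4.19 (LUM) to 6.83 (COL1A1), within the background range. The top of that range, 6.85, was SYT1 alone, and the next background gene, APOA2, had 5.53. LUM, FAP, CD14 and KRT14 had 0.80, 0.77, 0.46 and 0.26, and none passed (limma adjusted p = 0.127, 0.0915, 0.182 and 0.438). In each of them both mimic arrays lay above both control arrays. The share of all genes higher without overlap was not computed, and among all single probesets tested it was 20.7%. The rest of these markers had overlapping groups, with differences from -0.11 (CD3D) to 0.31 (COL3A1). LUM was read by 1 probeset, and LUM and FAP had control levels of 4.19 and 4.26. Over all probesets with a control level under 6 the median difference was 0.09. The part of these markers in the members' result was not tested.

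The genes whose profile over the 4 arrays, centred on its own mean, lay nearest to the mean profile of the 10 members were sought among 13107 genes with at least 3 probesets. They were RNPEPL1, GPNMB, TMEM134, PIGK and CENPO, at Euclidean distances from 0.013 to 0.032 on the log2 scale. Their differences ran from -0.69 to -0.65, and none passed the threshold (limma adjusted p from 0.0601 to 0.0697). CENPO encodes a kinetochore protein and GPNMB a transmembrane glycoprotein.

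Of the members with a matched promoter, MCM2 and MCM7 had a neighbour that starts on the opposite strand within 1000 bases. TPRA1, whose start lies 180 bases from that of MCM2, had 0.24 (SE 0.146, limma adjusted p = 0.42). AP4M1, an adaptor complex subunit whose nearest start lies 246 bases from that of MCM7, had -0.23 (SE 0.118, limma adjusted p = 0.351). Neither passed, and the difference between neighbours was not tested.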

How the data were processed

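The series compares 2 arrays of T-47D cells given the p-27-5p mimic with 2 of cells given the negative control. The authors deposited log2 values for 232479 exon-level probesets. Partek, RMA and hg18 are named without versions or order, per the submitters' processing notes. The arrays share a mean but not 1 distribution, with interquartile ranges from 4.18 to 4.52, so they were not quantile-normalized over this table. Correlations between arrays were 0.985 and 0.984 within groups and 0.966 to 0.973 between groups. The number of arrays limits the precision.

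Symbols came from GEO's platform annotation, updated through RefSeq synonyms (190058 current, 25769 updated, 953 kept; 2335 with several and 13364 unnamed were left out). The 10 members' symbols needed no update. Genes were given the average log2 level of those of their probesets with a mean over the 4 arrays at or above the 25th percentile of such means (4.09). All 15708 genes and, separately, 163371 probesets were fitted with limma 3.58.1 in R 4.3.3 (lmFit, eBayes, two-sided, Benjamini-Hochberg; 2 residual degrees of freedom, 5.29 with the prior). SE comes from the moderated limma fit. Scripts were tested on simulated data. Genes named are the 10 members, per replication list the genes past the threshold and the 3 with the smallest p, the 5 nearest profiles, and MKI67, E2F1, CDK4 and IFIT1; CDC45, PCNA, POLD3 and the neighbours were chosen after their values were seen. Members and lists were chosen with earlier results of these data known. Alternatives were a replicate block, 3 other normalizations, other filters and probeset summaries, each array left out, an intensity trend, robust hyperparameters, a threshold of 0.1 and symbols as listed. Levels were set against other genes only to judge background, since probes differ in brightness.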

Additional observations from a re-analysis of the deposited data

How the results depend on the processing

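Each of the 10 members kept a negative difference in every alternative run, but calls rested on the settings. Of all genes, 364 passed the threshold; 1433 did without a filter on dim probesets, 1595 with an intensity trend, 122 with the brightest probeset, 982 at a threshold of 0.1, and from 172 to 1678 with an array left out, where the lone array of a group is assumed to vary like the others. The causes were not tested.

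Of the 3 members called, 0 passed with the median or the brightest probeset. A total of 7 members passed without a filter, 9 with an intensity trend, 6 at a threshold of 0.1, 5 with probesets above the background level (chosen after seeing the data) and from 0 to 6 with an array left out. The series' design text speaks of mimic and control pairs, without saying what a replicate number shares. Arrays of the same number deviated together (r = 0.435 over all genes and 0.809 over the 10 members), but with 2 pairs these numbers do not settle a pairing. With the replicate block the same 3 members passed, 438 genes passed in all, POLD2 was lost (0 polymerase genes), 1 gene of helicase activation passed and 1 of the members' probesets passed in place of 2. With an array left out 0 of these probesets passed in each fit, and between 136 and 142 had the mimic arrays below the control arrays.

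The median of the 10 members, -0.60, was -0.56 with quantile normalization, -0.53 with cyclic loess, -0.66 with the median of probesets, -0.50 with the brightest, -0.66 with probesets above the background level and from -0.70 to -0.55 with an array left out. For MCM2-7, -0.57 in the fit reported, it was -0.54 with quantile normalization, -0.56 with equal array medians, -0.51 with cyclic loess, -0.60 with probesets above the table's median, -0.58 with the median of probesets, -0.42 with the brightest, -0.62 with probesets above the background level and from -0.58 to -0.55 with an array left out. For GINS1-4 it was -0.57 with the brightest probeset and from -0.87 to -0.70 with an array left out.

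Without a filter 3 licensing, 4 activation, 5 polymerase, 2 clamp and 2 single-strand binding genes passed. With an intensity trend 2, 4, 4, 4 and 2 did. At a threshold of 0.1 there were 3 polymerase, 2 clamp and 1 single-strand binding genes, and with probesets above the background level 1 clamp gene. With the median or the brightest probeset 0 polymerase genes passed. With an array left out the counts ran from 0 to 1 for licensing, 0 to 3 for activation, 0 to 4 for polymerases, 0 to 2 for the clamp and 0 to 1 for single-strand binding.

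The list medians that moved by more than the spread between arrays were -0.40 for polymerases and -0.40 for the clamp with cyclic loess, -0.39 for the clamp with probesets above the background level, and -0.47 for single-strand binding with probesets above the table's median. With the median of probesets they were -0.59 for polymerases and -0.51 for single-strand binding, and with the brightest -0.16 for activation, 0.11 for the relatives of the ring, -0.26 for polymerases and -0.22 for the clamp. For licensing the median was -0.50 with symbols as the platform lists them, where genes under older symbols drop out. With an array left out it ran from -0.34 to -0.20 for licensing, -0.54 to -0.34 for activation, -0.22 to -0.06 for fork protection, -0.14 to -0.03 for the relatives, -0.53 to -0.34 for polymerases, -0.58 to -0.33 for the clamp and -0.44 to -0.34 for single-strand binding. Signal over background limits GINS4 most.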
